A study of Mus musculus with 14 samples.

Results

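The snoRNA host genes described here were *Gas5*, *Snhg1*, *Snhg3*, *Snhg5*, *Snhg6*, *Snhg8* and *Snhg12*, 7 of the 52459 genes in the count tables, taken by their symbols. The libraries came from E14Tg2a mouse embryonic stem cells (mESCs), a feeder-independent line grown on gelatin with serum and LIF. WT cells were compared with a METTL14 R255K knock-in line, in which a lysine replaces a methylated arginine of METTL14, the partner of METTL3 in the complex that writes N6-methyladenosine (m6A) on RNA. The knock-in was made with CRISPR-Cas9 and lines were raised from single colonies, so the genotype cannot be told apart from other differences between 1 such line and its parent. Both genotypes were given 5 µg/ml actinomycin D, which blocks transcription, for 0, 4 or 8 h, with 1 RNA-seq library per genotype and time (6 libraries). MeRIP-seq, which pulls down RNA fragments with an m6A antibody, had 2 IP and 2 input libraries per genotype from untreated cells, deposited as 1 peak list per genotype. Since each group is a single library, differences below lack a replicate check and carry no p-values. The 95% intervals cover counting error only. They are exact for a level (Poisson) and for a ratio of counts (Clopper-Pearson). For decay rates, half-lives, half-life ratios and the percent left in R255K over that in WT cells they are normal approximations.

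Small nucleolar RNAs (snoRNAs) guide the chemical modification of ribosomal RNA, box C/D snoRNAs its 2′-O-methylation and box H/ACA snoRNAs its pseudouridylation. In mammals most of them are cut out of introns. A snoRNA host gene of the kind described here encodes no long protein: its introns give the snoRNAs, while its exons are spliced into an RNA that, for many hosts, is exported, met by ribosomes and destroyed by nonsense-mediated decay. *Gas5* (growth arrest specific 5) was named for its build-up in growth-arrested cells, and its spliced RNA is a textbook target of that decay. Many of these hosts start transcription at a 5′ terminal oligopyrimidine (TOP) tract, as ribosomal protein genes do.

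Summed counts ranged from 13812160 to 18813640 per library. All 6 pluripotency markers checked (*Pou5f1*, *Sox2*, *Nanog*, *Zfp42*, *Esrrb* and *Dppa5a*) were at 80.4 FPKM or more in both 0 h libraries, FPKM being counts scaled to exon length and library size. Their summed level was 2365 FPKM in WT and 1768 in R255K cells. The ectoderm markers *Pax6* and *Sox1* summed to 14.6 and 2.89 FPKM, the 5 fibroblast markers to 1.64 and 5.94, with 1 of the 5 (*Thy1*) at 1 FPKM or more in both, the 3 endoderm markers to 2.02 and 3.42 and the 2 mesoderm markers to 0.543 and 1.79. The part of these differences in the results below was not tested, and in bulk RNA fewer cells of a type and less RNA per cell cannot be told apart. *Mettl14* itself had 5.27, 3.38 and 2.26 FPKM at 0, 4 and 8 h in WT, against 2.58, 2.03 and 1.497 in R255K cells. Counts per gene cannot show the changed codon.

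The 7 hosts carry 27 genes within their bounds that GENCODE types as snoRNA (mm10). *Gas5* (chr1:161034422-161038539, + strand) holds 9, of which 1 bears a microRNA symbol (*Mir5117*), and *Snhg1* (chr19:8723475-8726443, + strand) holds 8. *Snhg12* (chr4:132308678-132311024, + strand) holds 4, the H/ACA genes *Snora16a*, *Snora44* and *Snora61* and the C/D gene *Snord99*. *Snhg5* (chr9:88521050-88522929, − strand) holds *Snord50a* and *Snord50b*, *Snhg3* (chr4:132348014-132353686, − strand) holds *Snora73a* and *Snora73b*, *Snhg6* (chr1:9941959-9944118, − strand) holds *Snord87* and *Snhg8* (chr3:123507552-123508404, − strand) holds *Snora24*.

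Of the 27 snoRNA genes, 25 had 0 counts in all 6 libraries. A count of 0 here is set in part by the counting: the annotated exons, retained-intron transcripts included, covered 91.3% to 100% of the span of *Gas5*, *Snhg1*, *Snhg5* and *Snhg8*, and bases shared between genes gave almost no counts (1071 of the 1084 genes with every exon base shared were at 0). Strand was not used, since all 426 genes whose exon bases were shared only with the opposite strand were at 0. *Snora16a*, which lies outside the annotated exons of *Snhg12*, was counted 35, 1 and 1 times over the course in WT, against 19, 0 and 0 in R255K cells. *Snord87* had 2, 0 and 0 counts in each genotype, too few to give a direction. Only *Snora16a* could thus be followed, and it was counted almost only before actinomycin D. Whether its reads came from the snoRNA or from unspliced *Snhg12* RNA was not tested.

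The same counting left *Snhg3* nearly unmeasured. Only 135 of its 986 exon bases (13.7%) belonged to no other gene, the rest being shared with *Rcc1*, *Gm17300* on the opposite strand and *Snora73a*. It had 4, 0 and 1 counts in WT, against 3, 2 and 3 in R255K cells, at or near the floor of 3 counts in every library, so no fold or direction is given for it. The other 6 hosts kept 79.1% to 91.7% of their exon bases and passed the filter of a mean of 1 FPKM at 0 h, which 11869 genes passed. On *Snhg6*, 127 bases were lost to *Mcmdc2*, which overlaps it on the opposite strand. The other losses of these 6 hosts were to the genes typed as snoRNA within them.

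No m6A peak lay on any of the 7 hosts in either genotype. The WT list put at least 1 peak on an exon of 57.4% of the genes tested and the R255K list on 43.6%, against 0 of the 6 hosts tested in both. Among the 248 genes tested that GENCODE types as lincRNA, processed transcript or antisense, 102 (41.1%) carried a WT peak and 64 (25.8%) an R255K peak. *Snhg3* had no peak either, and none was found in introns. The nearest WT peak to *Gas5* ended 1742 bp upstream, at chr1:161031881-161032679 on an exon of *Zbtb37*, with a fold enrichment of 9.69. For the other hosts the nearest WT peak was 3989 bp (*Snhg3*) to 138083 bp (*Snhg8*) away. The peak lists hold no signal, so enrichment under the caller's threshold cannot be seen, and the depth behind them is unknown.

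The core letters of the m6A motif, GGAC, were present on the annotated exons of each host, searched on the strand of the gene. These exons take in retained introns, so a GGAC counted here need not lie on the spliced RNA. *Gas5* had 17, *Snhg1* and *Snhg5* 6 each, *Snhg12* 4, *Snhg6* and *Snhg8* 3 each and *Snhg3* 2. The 6 hosts tested had a median of 3.04 per kilobase, against 3.86 over all genes tested, of which 97.6% had at least 1. The first GGAC from the 5′ end that lies on bases of no other gene is shown for each of these 6 hosts (mm10, strand of the gene, GGAC in capitals). These are examples of the motif on annotated exons without a called peak, spliced or retained.
*Gas5*, chr1:161035085-161035109: gggtttaagtGGACgcagcaagcag
*Snhg1*, chr19:8723871-8723895: taataaatgtGGACtttggtaatct
*Snhg5*, chr9:88522525-88522549: acgttcacaaGGACaatggcgccat
*Snhg6*, chr1:9943043-9943067: tgtctgtgatGGACggatgatggga
*Snhg8*, chr3:123507887-123507911: ctagaaaaatGGACttcagttttct
*Snhg12*, chr4:132308812-132308836: tgccgggaagGGACcggatttttcc

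**Figure D1:**
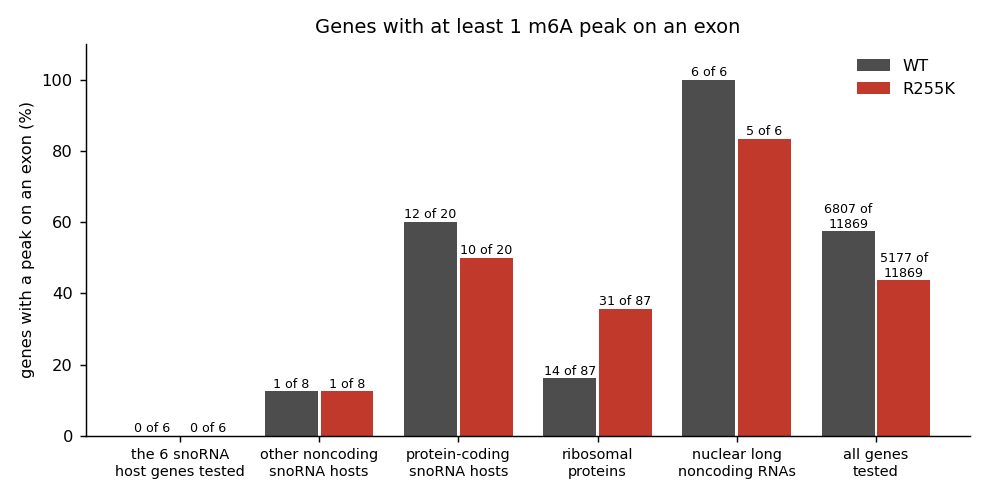
Percent of genes with at least 1 MeRIP-seq peak on an exon (vertical axis) in the WT list (grey) and the R255K list (red), by gene group, with the number of genes above each bar. The 6 snoRNA host genes tested stand at 0 of 6 in both lists, and the nuclear long noncoding RNAs at 6 of 6 in WT and 5 of 6 in R255K cells.

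The 5′ starts of the hosts were examined because TOP tracts mark genes of this class. RefSeq start windows (GRCm38) were at hand for 6 of the 7 hosts, with 7 starts in all. A run of 5 or more C or T that begins with C within 5 bases of the annotated start was found at 4 of the 7 starts, on the strand of the gene. It was found at 18.3% of the 32851 starts of all genes and at 41.3% of the 75 starts of cytoplasmic ribosomal protein genes. Windows of 30 bases are shown for the 4 starts with a run (in capitals) and for the *Snhg5* start, which had none by this rule.
*Gas5*, chr1:161035156-161035185: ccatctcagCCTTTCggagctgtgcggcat
*Snhg8*, chr3:123508317-123508346: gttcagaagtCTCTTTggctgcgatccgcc
*Snhg12*, chr4:132308668-132308697: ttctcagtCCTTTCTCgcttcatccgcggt
*Snhg3*, chr4:132353667-132353696: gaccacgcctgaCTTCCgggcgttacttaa
*Snhg5*, chr9:88522878-88522907: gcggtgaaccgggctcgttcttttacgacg

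Before actinomycin D the hosts were expressed at moderate levels. In WT cells at 0 h *Snhg5* was highest at 30.3 FPKM (28.4 to 32.3), followed by *Snhg8* at 21.5 (19.2 to 23.9), *Snhg6* at 18.6 (16.7 to 20.6), *Snhg1* at 16.5 (15.5 to 17.7) and *Snhg12* at 14.9 (13.5 to 16.4), with *Gas5* lowest at 8.68 (7.98 to 9.43). The intervals of neighbours from *Snhg8* down to *Snhg12* overlapped, and those of *Snhg5* and *Gas5* stood apart. In R255K cells at 0 h *Snhg8* came first at 25.3 FPKM (22.7 to 28.2), before *Snhg5* at 21.1 (19.4 to 22.9), *Snhg1* at 13.1 (12.1 to 14.2), *Snhg12* at 11.9 (10.6 to 13.3), *Snhg6* at 11.4 (9.92 to 13.1) and *Gas5* at 4.66 (4.12 to 5.24). Here the first pair overlapped, as did *Snhg1*, *Snhg12* and *Snhg6*. These levels divide by all exon bases, retained introns included. Over bases of no other gene they were 1.09 to 1.27 times as high, with *Snhg1* (20.93) and *Snhg6* (20.89) then side by side in WT cells.

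**Figure D2:**
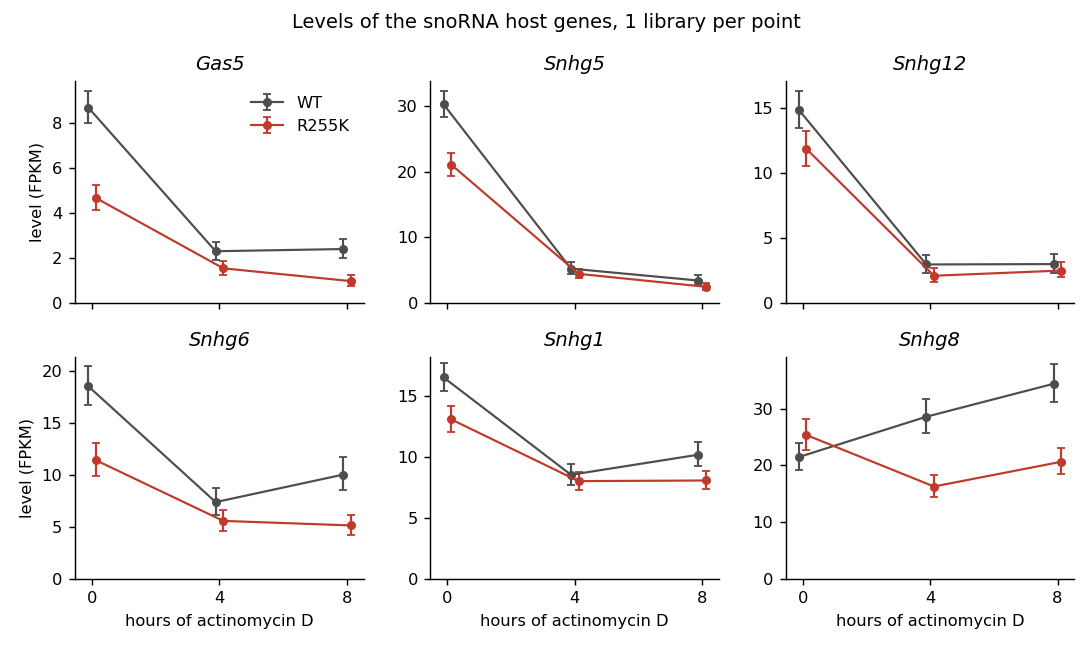
Level (FPKM, vertical axes from 0) of the 6 measured snoRNA host genes against hours of actinomycin D in WT (grey) and R255K cells (red), 1 library per point, with bars for exact Poisson 95% intervals. 5 of the 6 genes fell by 1.5-fold or more by 4 h in both genotypes, whereas *Snhg8* did so in R255K cells only and stood at 160.2% of its 0 h level at 8 h in WT cells and at 81.4% in R255K cells.

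After actinomycin D, 5 of the 6 hosts fell by 1.5-fold or more at 8 h in WT cells, against 51.0% of all genes tested, and the same number fell in R255K cells, against 32.4%. All levels are shares of the library, since no spike-in was used here. The counted exons take in retained introns, so the levels can include unspliced RNA. Spliced and unspliced RNA were not told apart in the falls and half-lives below. *Snhg5*, host of *Snord50a* and *Snord50b*, fell furthest. It went from 30.3 FPKM to 5.21 and 3.39 at 4 and 8 h in WT cells and from 21.1 to 4.41 and 2.43 in R255K cells. That left 11.2% of the 0 h level (8.80 to 14.05) in WT and 11.5% (8.97 to 14.6) in R255K cells. In R255K cells only 2.95% of the genes tested kept less, and in WT cells 16.0% did.

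*Snhg12* and *Gas5* also lost most of their counted level within 4 h. *Snhg12* went from 14.9 FPKM to 2.96 and 2.98 in WT cells and from 11.9 to 2.08 and 2.48 in R255K cells. Its 8 h level was 20.0% of that at 0 h (15.2 to 26.0) in WT and 20.9% (16.1 to 27.0) in R255K cells. *Gas5* went from 8.68 FPKM to 2.29 and 2.39 in WT cells and from 4.66 to 1.53 and 0.961 in R255K cells. At 8 h it retained 27.5% (22.5 to 33.4) in WT and 20.6% (15.6 to 27.0) in R255K cells. *Gas5* was thus level from 4 to 8 h in WT cells (8 h over 4 h 1.04, 0.808 to 1.34) and went down further in R255K cells (0.628, 0.457 to 0.859).

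*Snhg6* and *Snhg1* kept more of their counted level. *Snhg6* went from 18.6 FPKM to 7.40 and 10.0 in WT cells and from 11.4 to 5.58 and 5.15 in R255K cells, so that 54.1% (44.6 to 65.3) and 45.0% (35.4 to 57.0) were left at 8 h. *Snhg1*, which holds 8 snoRNA genes, went from 16.5 FPKM to 8.54 and 10.2 in WT cells and from 13.1 to 8.02 and 8.07 in R255K cells. It was left at 61.6% (54.7 to 69.3) in WT and 61.7% (54.5 to 69.8) in R255K cells. In WT cells both genes were higher at 8 h than at 4 h, *Snhg6* by 1.36-fold (1.07 to 1.73) and *Snhg1* by 1.19-fold (1.04 to 1.37). Scaled to ribosomal protein genes, *Snhg1* was not, at 37.6% of its 0 h level at 4 h and 37.1% at 8 h, and *Snhg6* was at 29.0% and 32.6%. These are shares of the library, so a higher share does not measure more RNA per cell.

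The falls depended on the scaling for the slower hosts. Under TMM scaling 3 of the 6 hosts were lower at 8 h by 1.5-fold or more in WT cells and 4 in R255K cells, against 41.9% and 28.7% of all genes with the same scaling. *Snhg5*, *Snhg12* and *Gas5* were at 44.8% or less at 8 h in both genotypes under TMM, DESeq2 and ribosomal protein scaling. *Snhg1* in WT cells ranged from 37.1% (ribosomal protein genes) to 100.4% (DESeq2 size factors).

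**Figure D3:**
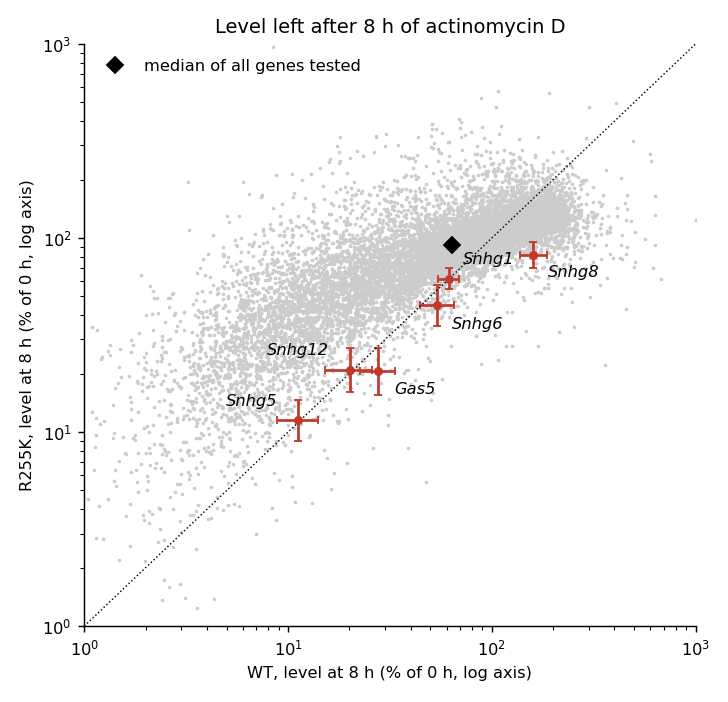
Level at 8 h of actinomycin D as a percent of that at 0 h in WT (horizontal log axis) and R255K cells (vertical log axis). Red points are the 6 snoRNA host genes with exact 95% intervals, grey points are 11652 genes (217 genes fall outside the axes), the diamond is the median of all genes tested and the dotted line marks equal percentages. Of the drawn genes 66.2% lie above the line, whereas *Snhg1*, *Snhg5* and *Snhg12* lie close to it, *Gas5* and *Snhg6* under it and *Snhg8* far under it.

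Of the 6 hosts measured, 5 had a half-life in both genotypes, each within 1.23-fold of the other. Of the 11869 genes tested 5504 had a half-life in both genotypes, and most of these had a longer one in R255K cells. *Snhg8*, the remaining host, had a decay rate below 0 in WT cells (−0.065 per h) and above 0 in R255K cells (0.068 per h), a difference of 0.133 per h (0.097 to 0.170). A half-life was taken as ln2 over the mean decay rate from 0 to 4 h and from 0 to 8 h. That of *Snhg5* was 1.94 h (1.80 to 2.11) in WT and 2.10 h (1.93 to 2.30) in R255K cells, that of *Snhg12* 2.29 h (2.04 to 2.61) and 2.198 h (1.95 to 2.52), and that of *Gas5* 2.80 h (2.51 to 3.17) and 2.91 h (2.53 to 3.43). *Snhg6* had 4.51 h (3.77 to 5.63) and 4.97 h (3.95 to 6.70), and *Snhg1* 6.14 h (5.27 to 7.36) and 7.58 h (6.23 to 9.67). The order of the 5 hosts was the same in both genotypes, but intervals of neighbours overlapped. Those of *Snhg5* and *Snhg12*, and of *Snhg6* and *Snhg1*, did so in both genotypes, and those of *Snhg12* and *Gas5* in WT cells. In WT cells the 8 h level over that at 4 h was 1.04 for *Gas5*, 1.01 for *Snhg12*, 1.36 for *Snhg6* and 1.19 for *Snhg1*. A single decay rate does not describe such a course, and the intervals of the half-lives do not cover that misfit.

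The ratio of R255K to WT half-life was 0.960 for *Snhg12* (0.805 to 1.14), 1.04 for *Gas5* (0.860 to 1.26), 1.08 for *Snhg5* (0.960 to 1.21), 1.10 for *Snhg6* (0.794 to 1.52) and 1.23 for *Snhg1* (0.940 to 1.62). Each interval included 1, and those of *Snhg6* and *Snhg1* also reached past 1.5. None of the 5 ratios was over 1.5, against 68.8% of the 5504 genes with a half-life in both genotypes, whose median ratio was 1.98. The ratios moved with the processing: all 5 were under 1 with TMM, DESeq2 size factors or GC correction, and *Snhg1* was at 1.68 when scaled to ribosomal protein genes and at 0.570 after GC correction. Under each of these settings every host with a ratio lay under the median of all genes. A decay rate above 0 between 4 and 8 h in both genotypes was found for *Snhg5* alone, with a ratio of 0.718.

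At steady state 2 of the 6 hosts were lower in R255K than in WT cells by 1.5-fold or more, *Gas5* and *Snhg6*, against 19.5% of all genes tested. *Gas5* was at 4.66 FPKM against 8.68, 1.86-fold lower (log2 −0.90, −1.11 to −0.69), and *Snhg6* at 11.4 against 18.6, 1.62-fold lower (−0.70, −0.95 to −0.45). *Snhg5*, *Snhg1* and *Snhg12* had log2 ratios of −0.52 (−0.68 to −0.37), −0.34 (−0.49 to −0.19) and −0.33 (−0.54 to −0.11), and *Snhg8* one of 0.24 (0.01 to 0.46). Thus 5 of 6 lay below WT, against 46.4% of all genes. The exons of the 6 hosts are poor in GC, at 40.7% to 47.5% against a median of 49.9% over all genes tested, and the ratio at 0 h had a trend on GC content. With that trend removed, 0 of the 6 were called, and the log2 ratios were −0.46 for *Gas5*, −0.25 for *Snhg6*, −0.03 for *Snhg5*, −0.20 for *Snhg12*, 0.41 for *Snhg1* and 0.40 for *Snhg8*.

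After actinomycin D all 6 hosts lay below WT in R255K cells at both times, against 37.1% of all genes at 4 h and 31.7% at 8 h, although *Snhg1* at both times and *Snhg12* at 8 h were above WT when scaled to ribosomal protein genes. At 4 h only *Snhg8* was lower by 1.5-fold or more (9.79% of all genes were), and *Gas5* at 1.53 against 2.29 FPKM came next (log2 −0.58, −0.97 to −0.20). At 8 h *Gas5*, *Snhg6* and *Snhg8* were (10.4% of all genes), with *Snhg8* no longer so when scaled to ribosomal protein genes. *Gas5* was at 0.961 FPKM in R255K against 2.39 in WT cells (log2 −1.31, −1.76 to −0.87), and only 2.11% of genes had a lower ratio. *Snhg6* was at 5.15 against 10.0 FPKM (−0.96, −1.33 to −0.61), with 4.19% of genes lower.

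The other 3 hosts had smaller ratios at 8 h, of −0.34 for *Snhg1* (−0.53 to −0.14), −0.48 for *Snhg5* (−0.95 to −0.02) and −0.26 for *Snhg12* (−0.76 to 0.23). At 4 h these were −0.09 (−0.29 to 0.11), −0.24 (−0.59 to 0.11) and −0.50 (−1.02 to 0.00). The intervals of all 3 at 4 h and of *Snhg12* at 8 h thus include 0.

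The median of all genes itself moved, from a log2 ratio of 0.06 at 0 h to 0.23 at 4 h and 0.51 at 8 h. Relative to that median the 6 hosts stood at a median of −0.49 at 0 h, −0.68 at 4 h and −1.12 at 8 h, and these values do not change with the scaling of whole libraries. It follows that the number under the median of all genes, 5 of the 6 at 0 h and all 6 at 4 and 8 h, cannot change with such scaling either. After GC correction the values were −0.25, −0.67 and −1.09, with 4, 6 and 6 hosts under the median. Scaled to ribosomal protein genes, *Snhg1* was at 0.11 at 4 h and 0.03 at 8 h and *Snhg12* at 0.10 at 8 h, above WT in sign, so that 5 of the 6 hosts lay below WT at 4 h and 4 at 8 h.

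**Figure D4:**
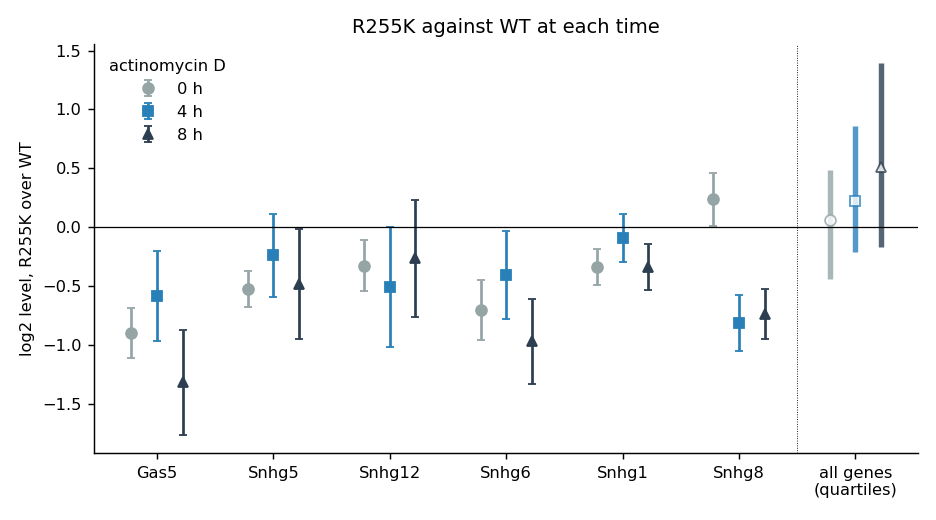
Log2 of the level in R255K over WT cells (vertical axis) for the 6 snoRNA host genes at 0 h (circles), 4 h (squares) and 8 h (triangles) of actinomycin D, with exact 95% intervals, beside the median (open symbol) and quartiles (thick bar) of all genes tested. All 12 values at 4 and 8 h lie under 0 with this scaling to summed counts (9 of 12 when scaled to ribosomal protein genes), while the median of all genes rises to 0.51 at 8 h.

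*Snhg8*, host of the H/ACA snoRNA *Snora24*, was the only host that stood above its 0 h level in one genotype and below it in the other, with the summed-count scaling. Its level in WT cells was 21.5 FPKM at 0 h, 28.6 at 4 h and 34.4 at 8 h. In R255K cells it was 25.3, 16.3 and 20.6. The WT series thus went up at each time, with 133% of the 0 h level (114 to 155) at 4 h and 160.2% (138 to 186) at 8 h, while the R255K series stood at 64.2% (54.4 to 75.7) and 81.4% (69.8 to 95.03). From 4 to 8 h the level went up in both genotypes. Relative to 0 h, the rise at 8 h in WT and the fall at 4 h in R255K cells passed 1.5-fold.

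The percent left in R255K over that in WT cells was −1.05 for *Snhg8* on the log2 scale at 4 h (−1.37 to −0.73) and −0.98 at 8 h (−1.28 to −0.67). Of the genes tested 1.75% had a lower value at 4 h and 2.61% at 8 h. The remaining 5 hosts lay between −0.18 and 0.32 at 4 h and between −0.41 and 0.06 at 8 h. Against WT, *Snhg8* in R255K cells was 1.76-fold lower at 4 h and 1.67-fold lower at 8 h. The WT rise depended on the scaling: relative to ribosomal protein genes *Snhg8* stood at 96.8% and 96.5% in WT cells and at 59.7% and 70.1% in R255K cells, and with TMM at 152% and 230.2%, and 64.6% and 89.4%. With the summed-count scaling no half-life could be given for it in WT cells, and the value in R255K cells was 10.2 h (7.35 to 16.4). Scaled to ribosomal protein genes, its half-life was 109.9 h in WT, against 8.00 h in R255K cells (ratio 0.0728), and its log2 ratio at 8 h was −0.37, within 1.5-fold. *Snhg8* lies 121443 bp from *Mettl14*, the edited gene, with 4 genes between.

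For comparison, other noncoding snoRNA hosts were looked at in the same way. Of 14 listed, 12 were in the tables and 8 passed the filter. By 8 h 5 of the 8 fell by 1.5-fold or more in WT and 7 in R255K cells, against 51.0% and 32.4% of all genes. Their median levels at 8 h were 60.4% and 51.5% of 0 h. With TMM 3 fell in WT and 6 in R255K cells, against 41.9% and 28.7% of all genes. At 4 h their median log2 ratio of R255K over WT was 0.50, with 4 higher (34.2% of all genes were) and 1 lower by 1.5-fold, and at 8 h it was 0.18, with 2 higher (47.4% of all genes) and 0 lower. Beside the medians of all genes, 0.23 and 0.51, that is above at 4 h and below at 8 h, and with TMM 1 of the 8 was lower at 8 h, as were 25.7% of all genes. Their median half-life ratio was 1.12 over 7 genes, with 2 over 1.5 and 1 under 1/1.5. Over all 5504 genes with a ratio the median was 1.98, with 68.8% over 1.5 and 318 under 1/1.5. *Epb41l4aos*, the most abundant, had 41.8, 35.1 and 31.1 FPKM in WT, against 64.1, 46.1 and 32.9 in R255K cells. *Snhg15* had 14.6, 6.14 and 8.52 FPKM in WT, against 22.0, 11.2 and 11.3 in R255K cells. Just 1 of the 8 carried an m6A peak, *Snhg11*, in both lists, beside 57.4% (WT) and 43.6% (R255K) of all genes.

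Many messenger RNAs also carry snoRNAs in their introns. Of 20 protein-coding hosts outside the ribosome, 4 fell by 1.5-fold at 8 h in WT and 3 in R255K cells, beside 51.0% and 32.4% of all genes. Their median levels at 8 h were 138% and 117% of 0 h, beside 64.1% and 92.0% over all genes tested. Those of the 6 hosts were 40.8% and 33.0%, and those of the 8 other noncoding hosts 60.4% and 51.5%. *Eef2*, translation elongation factor 2, was at 803, 990.0 and 1120 FPKM in WT, against 1006, 1002 and 1165 in R255K cells. *Hspa8*, a constitutive HSP70 chaperone, was at 54.1% and 56.6% at 8 h. Of these 20, 12 carried a WT peak and 10 an R255K peak, beside 57.4% and 43.6% of all genes. At 8 h 2 were lower and 1 higher in R255K cells by 1.5-fold, beside 10.4% and 47.4% of all genes. With TMM 10 were lower, beside 25.7%.

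Of the 11 core and assembly proteins of box C/D and H/ACA particles, 3 of which are also in the list of protein-coding hosts, 2 fell at 8 h in WT and 1 in R255K cells, and 6 carried a peak in each list. Against WT, 1 was lower and 1 higher at 8 h by 1.5-fold, beside 10.4% and 47.4% of all genes. With TMM 4 were lower, beside 25.7%. Of all genes 51.0% fell by 8 h in WT and 32.4% in R255K cells, and 57.4% and 43.6% carried a peak. *Nhp2*, an H/ACA core protein, had 240, 326 and 389 FPKM in WT, against 497, 510.3 and 574 in R255K cells. *Snu13*, which binds the kink-turn of C/D snoRNAs, had 143, 184 and 207 in WT, against 183, 192 and 198 in R255K cells.

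The factors of nonsense-mediated decay, the pathway known to destroy spliced host RNA, were called higher in R255K cells no more often than all genes with the summed-count scaling. Of 10 listed, 3 were lower and 2 higher by 1.5-fold at 0 h, 0 lower and 2 higher at 4 h and 0 lower and 4 higher at 8 h, with median log2 ratios of 0.11, 0.03 and 0.58 beside 0.06, 0.23 and 0.51 over all genes. Of all genes 20.8%, 34.2% and 47.4% were higher at these times, and 19.5%, 9.79% and 10.4% lower. With TMM 2 were lower, beside 25.7% of all genes, and 2 higher at 8 h. *Upf1*, its central helicase, had 60.2, 57.1 and 52.3 FPKM in WT, against 82.6, 64.3 and 78.0 in R255K cells. *Smg8*, a regulator of the kinase SMG1, had 26.2, 1.78 and 0.810 FPKM in WT, against 62.0, 25.2 and 14.7 in R255K cells. WT peaks lay on 9 of the 10 and R255K peaks on 7, beside 57.4% and 43.6% of all genes.

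Nuclear long noncoding RNAs, which are largely kept in the nucleus, were a further comparison. All 6 that were tested carried a WT peak and 5 an R255K peak. Their median level at 8 h was 106% of 0 h in WT and 131% in R255K cells. At 0 h 3 of the 6 were lower in R255K cells by 1.5-fold, beside 19.5% of all genes. *Malat1* had 14.5, 40.5 and 27.8 FPKM in WT, against 5.08, 37.98 and 28.4 in R255K cells, and *Rian* had 9.98, 14.2 and 12.4 in WT, against 10.8, 25.2 and 19.9 in R255K cells. Cytoplasmic ribosomal protein genes, which also start at TOP tracts, were stable: of 87 tested, 1 fell by 1.5-fold at 8 h in WT and 0 in R255K cells. Their median log2 ratio of R255K over WT was 0.18 at 0 h, −0.22 at 4 h and −0.36 at 8 h, with 14 carrying a WT peak and 31 an R255K peak. At 8 h 8 of them were lower in R255K cells by 1.5-fold, beside 10.4% of all genes, and 71 with TMM, beside 25.7%. Of all genes 51.0% fell by 8 h in WT and 32.4% in R255K cells, and 57.4% and 43.6% carried a peak.

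The genes whose course over the 6 libraries was nearest to the mean course of the 6 hosts were sought among 7468 other genes with at least 5 FPKM at 0 h. Likeness was the root mean square distance of log2(FPKM + 1) values, each gene centred on its own mean. The nearest were *Gm8066* (0.160), *Zfp383* (0.211), *Arhgef10l* (0.216), *Mxd3* (0.221) and *Hjurp* (0.222). By the same measure *Gas5* lay at 0.170 and *Snhg6* at 0.185, *Snhg1* at 0.289, *Snhg12* at 0.360, *Snhg5* at 0.621 and *Snhg8* at 0.663. Among the hosts the mean course thus described *Gas5* and *Snhg6* best and *Snhg8* least. Each host is part of that mean, which draws its own distance down. Even so, 21.9% of the 7468 other genes were nearer than *Snhg5* and 29.4% nearer than *Snhg8*. *Gm8066* had 8.52, 3.85 and 2.99 FPKM in WT, against 6.33, 2.55 and 1.53 in R255K cells and no peak in either list, whereas *Zfp383*, *Arhgef10l* and *Hjurp* each carried a WT peak.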

How the data were processed

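RNA-seq of the actinomycin D course (6 libraries) and MeRIP-seq (8 libraries) were analysed. Per the study's methods and the labels, the authors filtered out rRNA reads (Bowtie2 2.2.6), used HISAT2 to align to mm10, kept unique reads of high quality (Picard 2.16.0, SAMtools 0.1.09) and ran MACS2 on IP against input. The deposited counts are raw whole numbers per gene, and the counting tool is not given in the sources used here. The deposited peak lists give a fold enrichment over the local background and a −log10 q. How the authors combined the libraries of a genotype is not given.

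Counts were divided by exon length and by the sum of the library (FPKM). Genes with a mean of at least 1 FPKM at 0 h were tested, and a difference of 1.5-fold or more was called. For half-lives, 4 h and 8 h counts below 3 were raised to 3. Peaks were placed on the exons of the count tables with bedtools 2.31.1 (at least 1 bp), and sequences came from GRCm38.p6. Python 3.11.15, pandas 2.3.3, scipy 1.17.1, statsmodels 0.14.6, edgeR 4.0.16 (TMM factors only) and DESeq2 1.42.0 (size factors only) were used. GC trends were fitted with a lowess span of 0.3. The rate estimate, its interval and the exact interval of a ratio of counts were tested on simulated counts. These had constant decay rates and equal library scales. Courses that are level or rise from 4 to 8 h were thus not covered, nor was the choice of scaling.

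The genes and lists were chosen with earlier results of these data known. The text names the 7 hosts, the 2 most abundant genes of each list at 0 h (of ribosomal protein genes, none), the genes overlapping a host, their snoRNA genes and the 5 genes of nearest course. *Thy1*, *Snhg11* and the genes nearest to a peak were named after their values were seen. The division by exon bases of no other gene was chosen after seeing the data. Spike-ins, signal tracks and replicate values were not used here.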

Additional observations from a re-analysis of the deposited data

Results flagged for a closer look

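After actinomycin D *Snhg8* stood above its 0 h level in WT cells and below it in R255K cells, with the summed-count scaling. From 4 to 8 h it went up in both genotypes with that scaling. At 4 h it stood at 133% of its 0 h level in WT cells and at 64.2% in R255K cells, and at 8 h at 160.2% in WT and 81.4% in R255K cells. With 1 library per genotype and time the difference was not tested. Relative to ribosomal protein genes the WT value at 8 h was 96.5%, so that both genotypes then lay under their 0 h level.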

How the results depend on the processing

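The number of the 6 hosts lower in R255K cells by 1.5-fold was 2 at 0 h, 1 at 4 h and 3 at 8 h. It became 4 at 4 h and 6 at 8 h with TMM and with DESeq2 size factors, 0 at 0 h and 2 at 4 h with GC correction, 0, 0 and 1 at a fold of 2, and 2 at 8 h with scaling to ribosomal protein genes, where *Snhg8* fell short. All genes moved too: with TMM 17.4% were lower at 4 h and 25.7% at 8 h, and with DESeq2 size factors 19.3% and 32.4%. Scaled to ribosomal protein genes 4.36% were lower at 8 h. For calls at a fold of 2, and for levels with GC correction, no share of all genes is given. With TMM 41.9% fell by 8 h in WT and 28.7% in R255K cells, and with DESeq2 size factors 38.9% and 27.1%. The number that fell by 8 h in WT cells, 5, became 3 with TMM, with DESeq2 size factors and at a fold of 2. Half-life ratios over 1.5 went from 0 to 1 with scaling to ribosomal protein genes (*Snhg1*), where *Snhg8* gave a sixth ratio of 0.0728, and 1 host rather than 5 had a ratio between 4 and 8 h. Of all genes with a ratio, 68.8% were over 1.5 with summed counts and 81.4% when scaled to ribosomal protein genes. The level of *Snhg1* at 8 h in WT cells was 100.4% with DESeq2 size factors, and that of *Snhg8* was 96.5% with scaling to ribosomal protein genes, both reversed. Of 269 values of single hosts recomputed, 245 kept their direction, with 104 of 108 log2 ratios, 117 of 120 percentages and 24 of 41 half-life ratios, which lie near 1. The cause of these shifts was not tested. Peaks reaching 5 in −log10 q, or 4 in fold enrichment, and summits in exons are subsets of the peaks counted. They could thus not change the count of 0. The wider search of gene bodies also found 0 peaks. The overlap of 50% was not run, as no WT peak lay on a host, and GC correction of a percent of 0 h within a genotype has no ratio to correct. No paired analysis was possible because the peak lists pool the numbered libraries and the actinomycin D course has 1 library per group, which also leaves none to leave out.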
